A study of Mus musculus with 4 samples.

Results

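Described here is what 4 ng/ml of FGF2, the lowest dose tried, did to gene expression in mouse embryonic fibroblasts over 24 h. It was chosen by sample, as the 1 array labelled 4 ng/ml together with the 3 arrays of its control, so 4 of the 6 arrays in the series. The cells were CF1 mouse embryonic fibroblasts, the feeder cells on which human embryonic stem cells are grown. In all groups they had been grown with serum, inactivated with mitomycin C, a DNA crosslinker that stops division, and seeded on a gelatine coat, 55000 cells to the square centimetre. They then received serum replacement medium for human embryonic stem cells, with 4 ng/ml FGF2 in the treated culture and without added FGF2 in the controls. The other 2 arrays, at 13 and 40 ng/ml, are described only to show where 4 ng/ml differs from higher doses. They also entered the normalisation, the filter on detected probes and the choice of the brightest probe of each gene. Each RNA (300 ng, amplified by 6 h of in vitro transcription and labelled with Cy3) was read on its own one-colour bead array from Illumina.

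There is 1 array at 4 ng/ml, so the treated side has no replicate and all the spread used in its tests comes from the 3 controls. The labels call the controls biological replicates without saying whether they were separate cultures, and p-values measure the spread between these arrays only.

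FGF2 is a secreted growth factor that binds FGF receptor tyrosine kinases together with heparan sulphate. The receptors activate the RAS, RAF, MEK and ERK kinases, which drive ETS and AP-1 transcription factors and also switch on inhibitors of the same pathway. In fibroblasts FGF signalling is known for promoting growth and for opposing TGF-beta, the factor that promotes collagen synthesis and the contractile myofibroblast state.

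Values are log2 normalised signals, where 1 unit is a 2-fold difference in background-corrected intensity, and they can be compared between arrays for 1 probe but not between probes. A probe counts as detected where the deposited detection score is at least 0.99. Detected probes numbered 11195 on the 4 ng/ml array, the fewest of the 6, and 11310 to 11698 on the controls. On the first principal component, with 85.3% of the variance, the 4 ng/ml array lay at 20.7, the controls at -35.8 to -33.8 and the higher doses at 41.8 and 42.5. On the second, with 5.83%, it stood apart at 17.96, with the other 5 arrays at -9.68 to 4.40. Of 7 fibroblast markers with a named probe, 7 were detected at 4 ng/ml and on each control. Of 8 leukocyte markers only Lyz2 was detected, and of 6 pluripotency markers none was, at 4 ng/ml or on all 3 controls. In RNA from whole cultures, fewer cells of a type and less RNA per cell cannot be told apart.

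Gene names were inferred from gene numbers or accessions inside the probe identifiers, and most probes have none. Of 11763 probes tested, 3872 had a gene name, covering 3484 genes, each represented by its brightest tested probe. The filter keeps a probe detected on at least 3 of the 6 arrays, so one seen only on the 3 controls, or only on the 3 FGF2 arrays, passed it through its brighter side. Not each such gene was called. Of 115 genes detected on 3 controls and undetected at 4 ng/ml, 72 were. Of 43 detected at 4 ng/ml and on 0 controls, 26 were. Because of this filter, counts over a gene list are descriptions, to be read beside the shares over all named genes (11.3% called higher and 11.8% lower).

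At 4 ng/ml, 2700 of the 11763 probes (23%) differed from control in limma at an adjusted p under 0.05. Of these, 1278 (10.9% of those tested) were higher and 1422 (12.1%) were lower. The 4 ng/ml value lay outside the range of the 3 controls for 8677 probes (73.8%) and 2548 named genes (73.1%), so this alone says little of a gene. Of the called probes, 699 changed more than 2-fold, 285 higher and 414 lower. In terms of named genes, 805 of 3484 (23.1%) were called, 394 upward (11.3%) and 411 downward (11.8%), and the median change over all of them was 0.03 on the log2 scale. When the arrays were scaled to the same median in place of quantile normalisation, 700 probes were higher and 1348 lower, so the higher share of the calls was 34.2% in place of 47.3%. Without control replicate 1 there were 1686 calls, 777 higher and 909 lower. The plot of all tested probes shows changes on both sides over most of the range of signal.

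**Figure D1:**
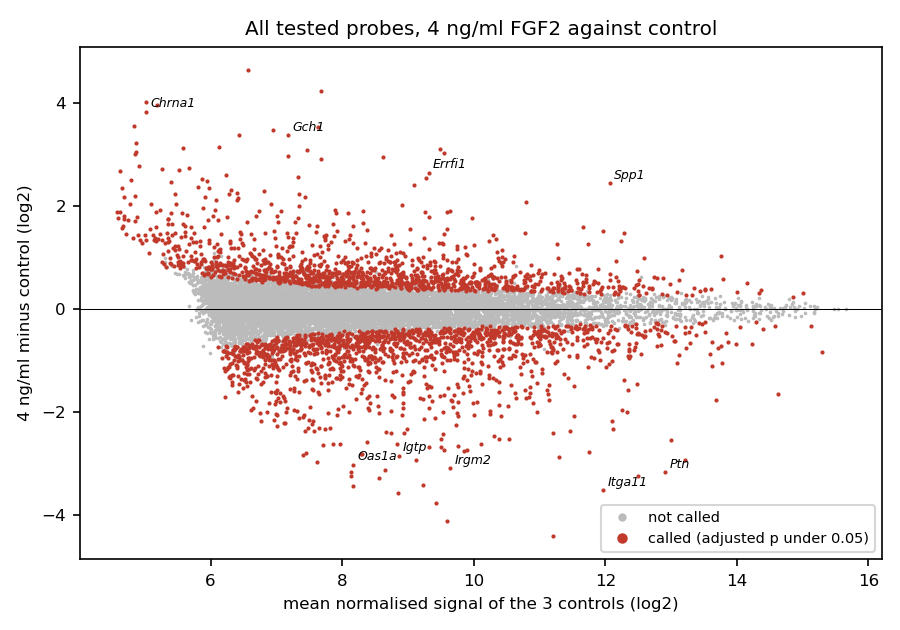
Change at 4 ng/ml FGF2 (log2, 1 array minus the mean of 3 controls) against the mean control signal (log2), 1 point per tested probe, with 2700 called probes in red and the others in grey. Named points are a few of the genes with the largest changes, such as Gch1 at 3.37 and Itga11 at -3.52. Points of probes undetected on one side, such as Chrna1, are fitted values and not bounds, and the points above Chrna1 or below Itga11 have no gene name.

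Among the 15 largest named rises was Chrna1, the alpha subunit of the muscle acetylcholine receptor, with a value of 8.85 at 4 ng/ml, against 5.32, 4.75 and 4.998 in the controls. It was undetected on the controls, and the rise is given as at least 6.95-fold. Such bounds set the detected side against the dimmest detected probe of each array on the other side. A second Chrna1 probe, detected on none of the 6 arrays, read 5.33 at 4 ng/ml, against 5.14, 4.79 and 4.97. Gch1, which makes GTP cyclohydrolase and limits the synthesis of tetrahydrobiopterin, stood at 10.55, with controls at 7.01, 6.93 and 7.60. Its change was 3.37 (SE 0.23, adjusted p = 1.33e-05), 10.4-fold, and the treated value lay far above the control range. A second, dimmer Gch1 probe was undetected on the controls and at least 1.24-fold higher.

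A pair of granzymes, serine proteases best known from cytotoxic lymphocytes, rose as well. Gzme reached 10.54 at 4 ng/ml, against 7.73, 7.31 and 7.35 in the controls, and a second probe of it gave 10.42, against 7.15, 6.94 and 6.74. Gzmd gave 8.62, against 6.28, 6.37 and 6.29. The granzyme genes are a family of close copies, so these probes may not tell them apart. Cd53, a tetraspanin of leukocytes, was detected at 4 ng/ml (7.86) and undetected on the controls (5.54, 5.02 and 5.63), at least 3.5-fold higher. Of the 8 leukocyte markers only Lyz2 was detected, and it was called lower (-0.64). The summed log2 level over all probes of the 8 was 51.6 at 4 ng/ml, against 52.0 to 52.6 in the controls. That sum is mostly undetected signal and says little of leukocyte content, with C1qa, C1qb, Cd3e and Cd68, among others, undetected on all 6 arrays.

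Other rises covered several kinds of gene. Spp1, which encodes the secreted matrix phosphoprotein osteopontin, was at 14.51, against 12.05, 12.12 and 12.04, a rise of 2.44 (SE 0.08, adjusted p = 4.42e-07) or 5.42-fold in a gene already bright without FGF2. Ptgs1, the cyclooxygenase that makes prostaglandin H2, was at 9.89, against 7.38, 7.56 and 7.04. Prl2c2, a proliferin of the prolactin family, was undetected in the controls and rose at least 3.78-fold. The macrophage metalloelastase gene Mmp12 rose at least 1.98-fold on the same terms. Nes, which encodes the intermediate filament protein nestin, rose by 2.11 (SE 0.25), with 2 of 3 controls detected and a second probe detected on no array. Evi2a also rose by 2.11 (SE 0.16). Trbv31, a segment of the T cell receptor beta chain (2.97), and Hmga2-ps1, named as a pseudogene of Hmga2 (2.90), complete the 15 largest with Errfi1 and Etv1. Both names rest on the inferred gene numbers, and a pseudogene probe may not be told apart from its parent gene.

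**Figure D2:**
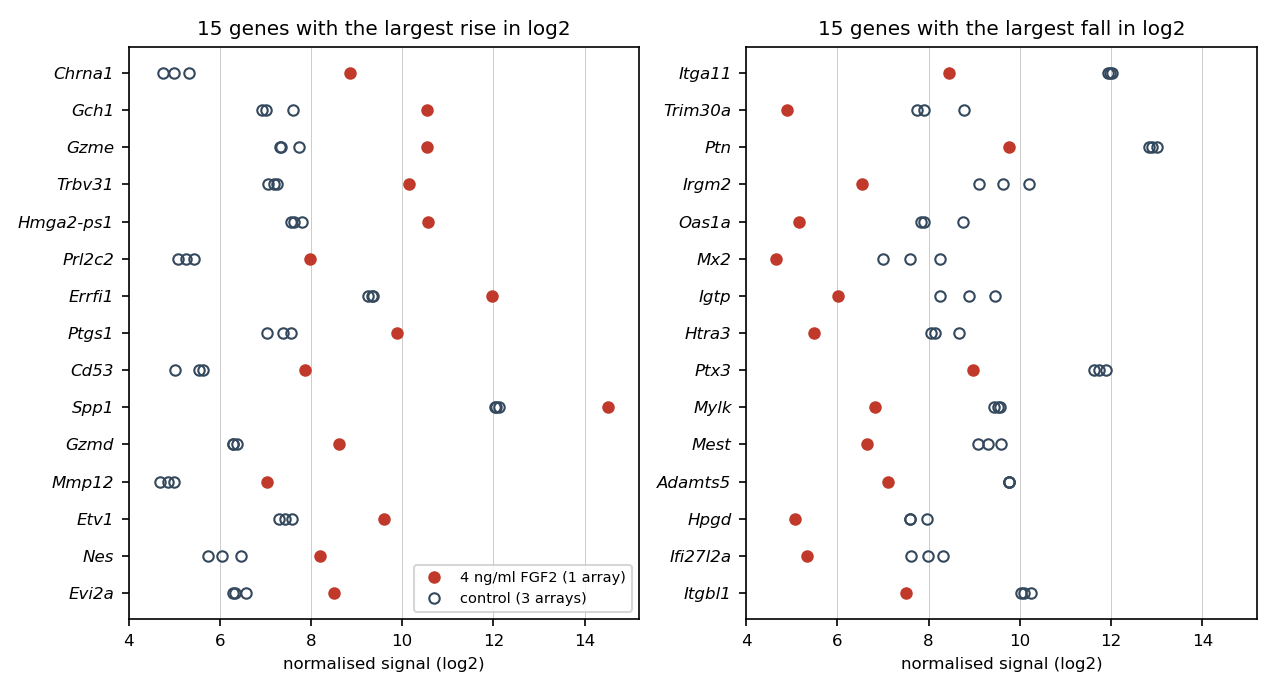
Log2 normalised signal on the 4 ng/ml FGF2 array (filled) and on the 3 control arrays (open) for the 15 named genes with the largest rise (left) and the 15 with the largest fall (right). In each row the treated point lies outside the range of the 3 controls, by the rule that chose the genes.

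Of the 15 largest falls, the first was Itga11, the collagen-binding integrin alpha 11 subunit, at 8.45 at 4 ng/ml, against 11.92, 12.01 and 11.98 in the controls. That is a change of -3.52 (SE 0.11, adjusted p = 4.42e-07), 11.5-fold lower, and a second Itga11 probe was detected on the 3 controls and undetected at 4 ng/ml. Ptn, the heparin-binding growth factor pleiotrophin, was at 9.75, against 12.91, 12.83 and 13.00. Ptx3, a secreted pentraxin of innate immunity, was at 8.98, against 11.75, 11.88 and 11.63. These genes were bright in the controls and remained detected at 4 ng/ml, where each had lost several fold of its signal.

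Mylk, the kinase that phosphorylates myosin light chain, fell by 2.68, and Adamts5, an aggrecan-cleaving protease, fell by 2.66. Itgbl1, an integrin beta-like secreted protein, fell by 2.62, and Mest, an imprinted gene, fell by 2.67. Htra3, a secreted serine protease, was detected on all 3 controls (8.14, 8.05 and 8.67) and undetected at 4 ng/ml (5.48), at least 4.45-fold lower. The others among the 15 were Hpgd, a prostaglandin-degrading enzyme, and the interferon-responsive genes Trim30a, Irgm2, Oas1a, Mx2, Igtp and Ifi27l2a.

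Among genes that act in or report on the ERK pathway, 5 of 9 tested rose, 3 fell and 1 did not pass the test, with a median change of 1.27, beside 0.03 over all named genes. Errfi1, an inducible inhibitor of the EGF receptor family, was at 11.96, against 9.24, 9.36 and 9.34. Its change of 2.65 (SE 0.10, adjusted p = 6.50e-07) was the largest of the group. Etv1, an ETS transcription factor, was at 9.61, against 7.30, 7.58 and 7.44, and a second, dimmer probe gave 6.42, against 5.44, 5.67 and 6.06. Ccnd1, the cyclin that ERK signalling induces at entry into the cell cycle, was at 13.57, against 12.14, 12.17 and 12.42. Rasa1, a RAS GTPase activator that turns RAS off, was at 10.78, against 9.46, 9.51 and 9.56. Spred1, an inhibitor of RAF activation, reached 7.03, against 5.80, 5.33 and 6.07, with 1 of 3 controls detected. In these 5 the treated array lay above each control. The falls were in Epha4, an ephrin receptor (at least 1.76-fold), Cdc42ep3, a CDC42 effector (-0.87), and Flrt3, a membrane partner of FGF receptors (-0.54), whose call was lost in 5 of 13 alternative settings. Dusp7, a phosphatase of ERK, was at 7.22, against 6.70, 6.66 and 6.89 (adjusted p = 0.0976). With limma's default estimate of the background the median of these 9 genes was 0.17.

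The list of FGF ligands, receptors and co-receptors changed less as a group. Of 8 tested 1 was higher and 2 were lower, with a median of -0.18 (-0.11 with undetected genes at their bound). The share called was 37.5%, beside 23.1% over all named genes. Gpc1, a heparan sulphate proteoglycan that binds FGFs, was at 13.57, against 12.61, 12.72 and 12.42, a rise of 0.99 (SE 0.11, adjusted p = 3.27e-04). Gpc6, another glypican, was detected on the controls (6.99, 7.23 and 7.15) and undetected at 4 ng/ml (4.91), at least 1.98-fold lower. Fgf13, an FGF homologue that stays inside the cell, was lower on the same terms, by at least 1.11-fold. The receptor Fgfr1 read 6.29, against 6.07, 5.94 and 6.13, near the detection limit (adjusted p = 0.474). Of 5 immediate early genes, which ERK switches on within minutes, Klf2 rose (0.61), Klf4 fell (-0.64) and Egr2, Junb and Fosl2 did not pass the test. The call of Klf2 was lost in 4 of 13 alternative settings, among them scaling to the same median and leaving out control replicate 1.

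Collagen genes were lower at 4 ng/ml across the list. Of 10 chains tested, 9 fell, 0 rose and Col7a1 (0.10) did not pass the test, with a median of -1.21, or -0.91 with undetected genes at their bound. The share called was 90%, beside 23.1% over all named genes. Col1a1, the main chain of type I collagen, was at 11.90, against 13.59, 13.62 and 13.81, a change of -1.78 (SE 0.10, adjusted p = 5.83e-06). Col1a2, its partner chain, was at 9.66, against 11.06, 11.29 and 11.07. Col3a1 was at 11.42, against 12.13, 12.44 and 12.54. The 4 ng/ml value was below the lowest control in each. Type IV and VIII chains also fell, with Col4a5 at -2.02, Col8a1 at -1.49 and Col8a2 undetected at 4 ng/ml and at least 1.56-fold lower. The type VI chains fell less, Col6a1 by 0.88 and Col6a3 by 0.41.

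Enzymes that modify, fold and crosslink collagen moved the same way, 5 of 7 lower and 0 higher, with a median of -0.68. P4ha3 and P3h1, which hydroxylate prolines, fell by 1.06 and 0.77, and the lysyl oxidase gene Loxl2 fell by 0.77. Serpinh1, the collagen chaperone HSP47, was at 13.30, against 14.04, 13.94 and 13.96. Of 16 other matrix genes 11 fell and 2 rose, with a median of -0.57. Ccdc80, a secreted matrix protein, was at 10.45, against 13.01, 12.97 and 12.99, and Eln, which encodes elastin, was at 6.53, against 9.21, 8.54 and 9.05. The risers were Spp1 and Ccn1, a matricellular protein (0.61, SE 0.12). Dcn, the small proteoglycan decorin, read 13.22, against 12.90, 13.04 and 13.12, and Fbln2, which encodes fibulin 2, read 13.14, against 13.39, 13.21 and 13.43. Neither passed the test, although a second, dimmer Dcn probe was called higher (0.43).

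Proteases and their inhibitors were mixed, with 5 of 10 lower and 2 higher. Timp3, a matrix-bound inhibitor of metalloproteases, was at 9.92, against 12.13, 11.94 and 12.21 (-2.18, SE 0.12), and Timp2 was at 13.05, against 13.24, 13.31 and 13.45, without passing the test. Among TGF-beta family genes 4 of 15 fell and 1 rose, so 33.3% were called, beside 23.1% over all named genes. Both ligands on the list fell, Tgfb2 to 7.90 at 4 ng/ml, against 9.63, 9.69 and 9.66, and Tgfb3 to 9.13, against 10.92, 10.82 and 10.80. Ltbp1, which stores latent TGF-beta in the matrix, rose by 0.74, whereas Ltbp2 fell by 0.73. Id3, a target of BMP signalling, read 9.37, against 9.60, 9.47 and 9.66, and did not pass the test. Contractile genes did not share a direction. Acta2, smooth muscle actin and the usual myofibroblast marker, was at 9.45, against 10.75, 10.68 and 10.72 (-1.27, SE 0.11), and Mylk fell as given above. The focal adhesion genes Zyx and Pdlim7 rose by 0.75 and 0.66. Of the integrin genes, Itga6, a laminin receptor subunit, moved opposite to Itga11, being undetected on the controls (5.14, 5.01 and 5.11) and detected at 4 ng/ml (7.12), at least 2.09-fold higher.

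**Figure D3:**
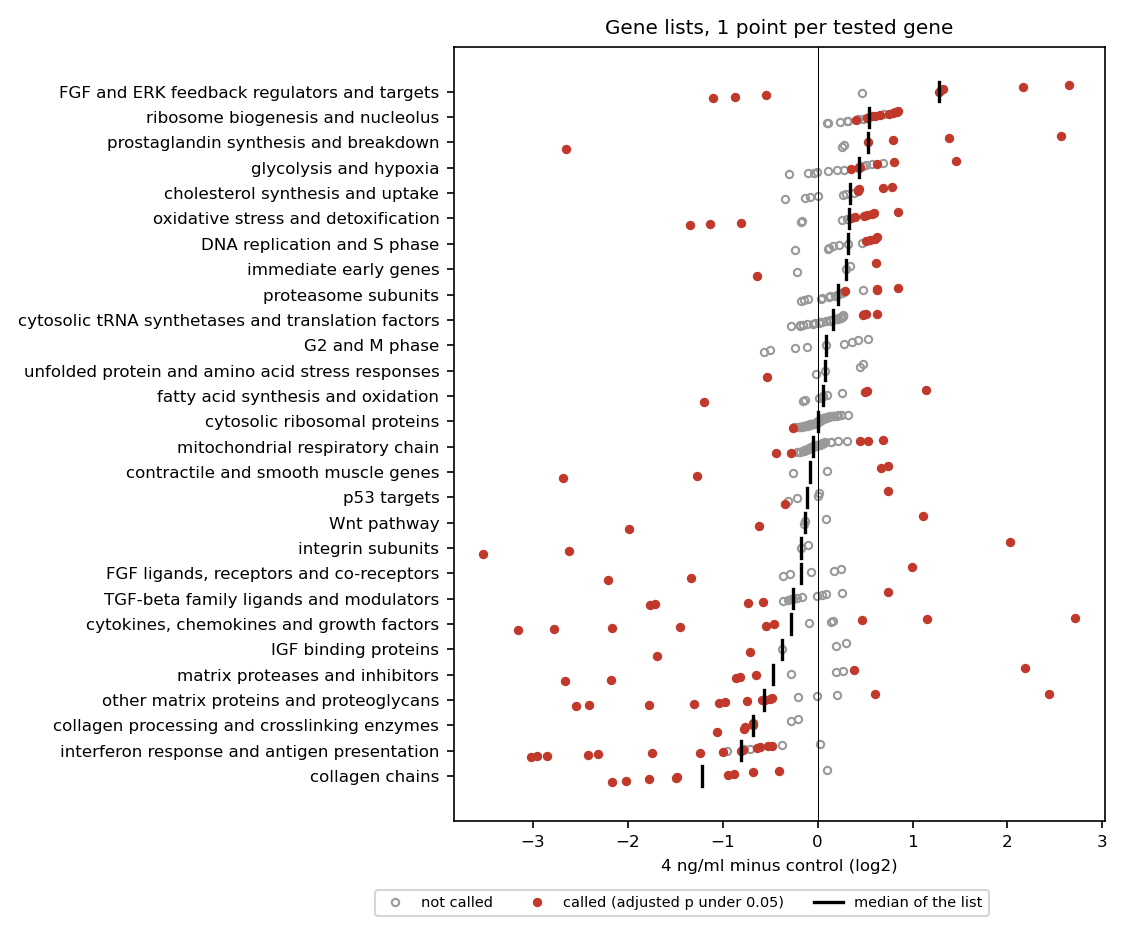
Change at 4 ng/ml FGF2 (log2, minus the mean of 3 controls) for each tested gene of 28 lists, filled red where called, with the median of each list as a black bar. The lists run downward by median, and collagen chains and interferon genes sit lowest, at -1.21 and -0.80, whereas ribosomal proteins sit at 0.01.

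Interferon-responsive and antigen presentation genes were lower at 4 ng/ml, 14 of 19 tested, with 0 higher and a median of -0.80. Irf9, a DNA-binding factor of the interferon response, was at 7.48, against 9.11, 9.04 and 9.54, a change of -1.75 (SE 0.20, adjusted p = 2.63e-04). Several antiviral effectors were detected on all 3 controls and undetected at 4 ng/ml. Oas1a, which senses double-stranded RNA, fell at least 4.10-fold, Mx2, a dynamin-like GTPase, at least 2.79-fold, Igtp, an immunity-related GTPase, at least 6.63-fold, and Ifit3 at least 3.21-fold. Outside that list but among the 15 largest falls, Irgm2, another immunity-related GTPase, was at 6.55, against 9.62, 9.10 and 10.21. Trim30a fell at least 4.01-fold and Ifi27l2a at least 3.56-fold.

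Genes of MHC class I presentation fell by less. B2m, the invariant light chain, was at 13.23, against 13.89, 13.90 and 13.82, a change of -0.64 (SE 0.08, adjusted p = 4.89e-04). H2-K1, a heavy chain, was at 9.66, against 10.22, 10.54 and 10.59, and the proteasome activator gene Psme1 was at 10.73, against 11.19, 11.15 and 11.29, with a second Psme1 probe that did not pass the test (-0.24). Heavy chain genes are close copies and may share probes. Irf7, Trim25, Psmb8, Psme2 and Ifi47 did not pass the test. The controls themselves differed in this group, and the mean over the 19 genes was 7.64 at 4 ng/ml, against 8.86, 8.65 and 9.23. Control replicate 3 was the highest of the controls for most of the antiviral genes, as the plot of this group shows. Without it 14 genes were again called lower, with a median of -0.68, against 18 without replicate 2 and 12 without replicate 1.

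**Figure D4:**
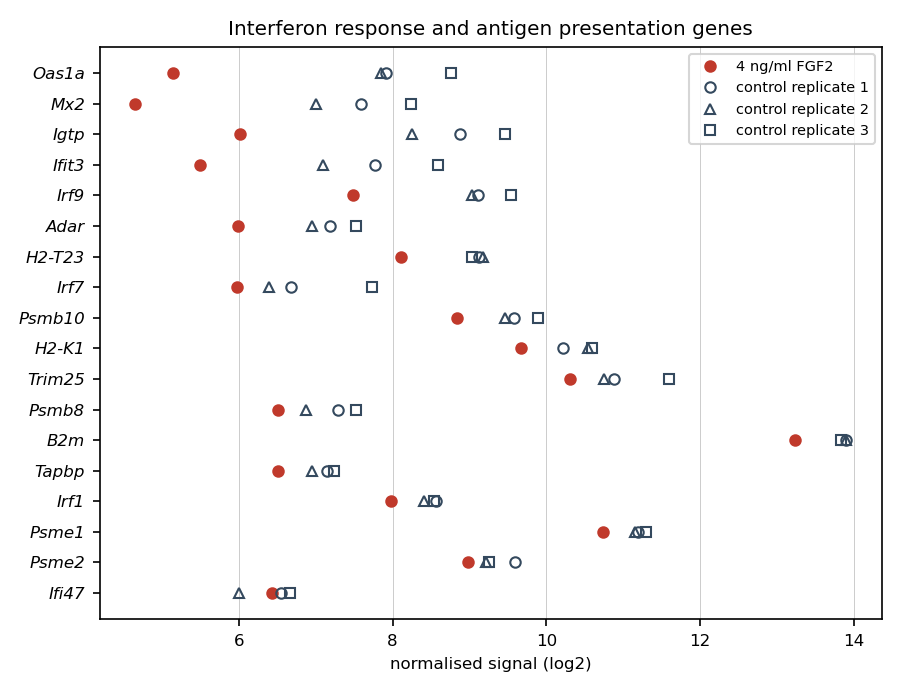
Log2 normalised signal of 18 of the interferon response and antigen presentation genes on the 4 ng/ml FGF2 array (filled) and on each control (open circle, triangle and square for replicates 1, 2 and 3). The treated point lies left of the 3 controls in each row but Ifi47, and control replicate 3 lies farthest right for genes such as Igtp (9.46) and Mx2 (8.25).

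The promoters of these genes are shown because many hold a recognisable element. The interferon-stimulated element is read by complexes that contain Irf9, and it was searched on both strands as GAAA, any 2 bases and GAAA again. In windows of 300 bases around the start site (RefSeq, GRCm38.p6), it was present in 6 of the 12 promoters that could be matched for the 14 genes called lower (50%). It was in 5 of 12 for the 15 largest falls (41.7%) and in 1 of 11 for the 15 largest rises (9.09%). The share was 3.99% over 27025 genes in the table and 3.23% over the 2814 tested genes with a promoter. The 14 genes come from a list of interferon-responsive and antigen presentation genes. A high share follows from that choice and says nothing of FGF2. Members of the list that were not called were not searched as a set. Igtp and Oas1a count both among the 14 genes and among the largest falls. Printed 5′ to 3′ on the gene's strand are the 250 bases before the start sites of Igtp (chr11:58199306-58199555, plus strand), Irgm2 (chr11:58214727-58214976, plus), Oas1a (chr5:120907526-120907775, minus), Ifit3 (chr19:34583279-34583528, plus) and B2m (chr2:122147437-122147686, plus), with matches on either strand in capitals.
Igtp: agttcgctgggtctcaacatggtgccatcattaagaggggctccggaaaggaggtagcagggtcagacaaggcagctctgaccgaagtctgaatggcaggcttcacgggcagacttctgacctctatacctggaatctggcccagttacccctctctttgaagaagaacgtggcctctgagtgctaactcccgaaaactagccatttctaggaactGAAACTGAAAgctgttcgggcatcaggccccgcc
Irgm2: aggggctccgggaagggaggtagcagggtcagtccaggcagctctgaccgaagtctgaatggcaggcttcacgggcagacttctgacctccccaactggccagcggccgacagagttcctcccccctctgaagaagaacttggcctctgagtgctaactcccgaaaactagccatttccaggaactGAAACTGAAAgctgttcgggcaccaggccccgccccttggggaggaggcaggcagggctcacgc
Oas1a: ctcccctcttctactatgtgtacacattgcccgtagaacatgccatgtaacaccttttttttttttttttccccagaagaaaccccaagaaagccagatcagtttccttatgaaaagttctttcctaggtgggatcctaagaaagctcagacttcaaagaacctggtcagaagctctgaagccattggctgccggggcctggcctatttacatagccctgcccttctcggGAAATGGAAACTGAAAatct
Ifit3: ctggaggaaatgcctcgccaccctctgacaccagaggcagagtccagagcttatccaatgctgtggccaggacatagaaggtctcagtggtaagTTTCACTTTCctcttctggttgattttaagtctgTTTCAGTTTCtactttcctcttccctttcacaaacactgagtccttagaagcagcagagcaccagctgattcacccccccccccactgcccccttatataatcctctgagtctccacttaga
B2m: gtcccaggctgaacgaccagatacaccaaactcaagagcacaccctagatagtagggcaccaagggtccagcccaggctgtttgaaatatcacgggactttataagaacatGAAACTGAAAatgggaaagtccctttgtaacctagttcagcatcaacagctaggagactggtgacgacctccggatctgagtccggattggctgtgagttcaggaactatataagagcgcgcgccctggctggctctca
The Igtp, Irgm2 and B2m matches have the same letters, GAAACTGAAA, and begin 34, 64 and 139 bases before the start site. Oas1a has 2 overlapping matches, of which the first begins 20 bases before the start, and Ifit3 has 2 on the opposite strand. A match describes the letters and does not show that the element is used. For the ERK-driven factors, the ETS core CCGGAAG was in 1 of 11 promoters of the largest rises (9.09%), beside 9.93% over all genes and 22.4% over the tested genes. AP-1 as TGANTCA was in 2 of 11 for the rises (18.2%) and 2 of 12 for the falls (16.7%), beside 8.97% over all genes and 6.11% over the tested genes.

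Secreted signals changed in both directions, with 6 of 12 cytokine, chemokine and growth factor genes lower and 3 higher. The share called was 75%, beside 23.1% over all named genes. Besides Ptn and Ptx3, Igf1, an insulin-like growth factor, fell at least 2.68-fold to below detection. Cxcl14 fell by 1.45, and the neutrophil chemokine gene Cxcl1 was at 12.04, against 12.42, 12.63 and 12.45 (-0.46, SE 0.11). Ccl2, which attracts monocytes, moved the other way and was at 11.59, against 10.53, 10.41 and 10.37, a rise of 1.15 (SE 0.11, adjusted p = 7.59e-05). Igfbp3, which binds insulin-like growth factors, was at 7.62, against 9.13, 9.28 and 9.53. In the Wnt pathway, Sfrp1, a secreted inhibitor, was at 8.26, against 10.22, 10.35 and 10.20, and the ligand gene Wnt5a was at 8.80, against 7.62, 7.62 and 7.84.

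Among prostaglandin genes, 4 synthetic enzymes rose and the degrading one fell. Ptgs2, the inducible cyclooxygenase, was at 8.63, against 7.21, 7.30 and 7.22, a rise of 1.38 (SE 0.13, adjusted p = 1.08e-04). Ptges, the synthase for prostaglandin E2, was at 8.18, against 7.51, 7.5 and 7.16, and Ptgis, the prostacyclin synthase gene, was at 8.81, against 8.37, 8.23 and 8.24. Hpgd, which inactivates prostaglandins, was detected on the controls (7.59, 7.96 and 7.59) and undetected at 4 ng/ml (5.07), at least 2.99-fold lower. With Ptgs1 that made 4 of 7 higher and 1 lower, while Ptges3 and Akr1b3 did not pass the test. The call for Ptgis was lost when arrays were scaled to the same median.

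Genes of growth and metabolism changed by less than 2-fold in most cases. Of 19 ribosome biogenesis genes 10 rose and 0 fell, with a median of 0.54, and 6 rose when arrays were scaled to the same median. Fbl, the methyltransferase fibrillarin, was at 11.15, against 10.38, 10.31 and 10.23 (0.84, SE 0.11), and Heatr1, needed for ribosomal RNA transcription, was at 9.64, against 8.79, 8.95 and 8.73. The ribosomal protein genes themselves stayed close to control, 66 of 67 not passing the test, with a median of 0.01 and a range of -0.26 to 0.32. Translation factors and tRNA synthetases gave 3 of 27 higher, among them Eif4a1 (0.63), and 0 lower, so that 11.1% were higher, close to the 11.3% over all named genes.

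Glycolysis and hypoxia genes gave 7 of 18 higher and 0 lower, with a median of 0.43. Egln3, an oxygen-sensing prolyl hydroxylase, was at 7.91, against 6.52, 6.61 and 6.23, and the enolase gene Eno1 was at 11.07, against 10.26, 10.10 and 10.44. The number called was 4 with a variance prior that ignores signal and 11 without control replicate 2. In cholesterol synthesis 5 of 12 rose and 0 fell, led by Idi1 (0.78, SE 0.17), whereas Hmgcs1 was at 12.89, against 12.84, 12.95 and 12.86. That count was 2 without control replicate 1 or with a variance prior that ignores signal. Of 14 genes of redox defence 7 rose, among them Srxn1, which repairs peroxiredoxins (0.85), and Gstp1 (0.59). The glutathione transferase genes Gstm1 and Gstm2 fell by 1.34 and 1.13, so members of 1 enzyme family moved apart. Without control replicate 1 there were 4 that rose. For fatty acids, Acsl4, an acyl-CoA synthetase with a preference for arachidonate, rose by 1.14 (SE 0.13), Fasn by 0.50 and Elovl6 by 0.52, and Lpl, a lipase, fell by 1.20. Proteasome subunits gave 4 of 18 higher (2 without control replicate 1 or when scaled to the same median), the respiratory chain 3 of 41 higher and 2 lower, and solute carriers 2 of 46 higher and 6 lower. The shares called either way were 22.2%, 12.2% and 17.4% for these lists, beside 23.1% over all named genes. For glycolysis and hypoxia, cholesterol synthesis and redox defence they were 38.9%, 41.7% and 71.4%.

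The cells had been stopped from dividing, and the cell cycle genes on both lists differed by less than 2-fold. Of 11 DNA replication genes 4 rose, Uhrf1 (0.63), Rrm2 (0.61), Fen1 (0.55) and Pcna (0.51), and 0 fell. That count was 1 when arrays were scaled to the same median and 1 without control replicate 1. In the main fit 36.4% of this list was called, beside 23.1% over all named genes. Of 9 G2 and M phase genes none passed limma's test, and Ccnb1, the mitotic cyclin, was at 7.36, against 7.63, 7.55 and 7.61. That zero depends on the setting, since 3 were called higher and 1 lower without control replicate 2. Among targets of p53, Cdkn1a, the inhibitor of cyclin-dependent kinases, was at 13.01, against 13.25, 13.22 and 13.20 (adjusted p = 0.0874), and Pmaip1 rose by 0.74, a call lost when arrays were scaled to the same median or without control replicate 1. Markers of other cell types rose in part. Of 5 neural markers tested 3 rose (Nes, Nefm and Gap43) and 1 fell (Ncam1, -1.03), with Gap43 at 10.15, against 9.17, 9.23 and 9.06. Tubb3 read 6.46, against 6.46, 6.48 and 6.74, and did not pass the test. Nefm was undetected on the controls and at least 1.24-fold higher. The summed log2 level over all probes of 11 such markers was 80.5 at 4 ng/ml, against 76.4 to 76.8. That sum includes Dcx, Gfap, Map2, Nefl, Snap25 and Syt1, which were undetected on all 6 arrays. Krt18, an epithelial keratin, was detected only at 4 ng/ml among these 4 arrays, at least 1.76-fold higher. The other epithelial markers with a probe did not share this. Krt8 and Krt19 were undetected on all 6 arrays, and Cldn4, detected on each control, did not pass the test (0.32). Whether other cell types contributed to these signals was not tested.

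Against the mean of 13 and 40 ng/ml, 572 of 11763 probes (4.86%) differed at 4 ng/ml in a limma fit, 341 higher and 231 lower. Among named genes 173 (4.97%) differed, 109 higher and 64 lower, and 109 of the 173 were also called against control. For 91 of those 109 the 4 ng/ml value lay between control and the higher doses, 31 above control and 60 below it. Both comparisons use the same 4 ng/ml array, so an error of that array enters each of them.

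Genes that had fallen at 4 ng/ml but were lower still at higher doses gave the largest gaps. Ptx3 had a control mean of 11.75 ± 0.12 (SD, n = 3) and values of 8.98, 6.16 and 5.63 at 4, 13 and 40 ng/ml, so 4 ng/ml was 3.09 (SE 0.19, adjusted p = 1.39e-05) above the higher doses, of which the 40 ng/ml value was undetected. Ptn, with a control mean of 12.91 ± 0.08, ran 9.75, 7.75 and 7.69. Serpina3g, a serine protease inhibitor, was reduced by 0.78 at 4 ng/ml, and its values of 11.59, 9.47 and 8.81 put 4 ng/ml 2.45 above the higher doses. The related Serpina3n (1.5), Itga11 (1.51), Sfrp1 (1.45) and Itgbl1 (1.32) had the same order of doses, and the Serpina3 genes are close copies. In each of these genes the 4 ng/ml array had an intermediate value. Nrbp2 was undetected at both higher doses, and 4 ng/ml was at least 1.29-fold above them.

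Errfi1, Socs2 and Chrna1 were the rising counterparts. Errfi1 ran 11.96, 13.03 and 13.14 at 4, 13 and 40 ng/ml, so 4 ng/ml was 1.13 (SE 0.10, adjusted p = 2.55e-04) below the higher doses. Socs2, an inhibitor of cytokine signalling, ran 8.97, 10.01 and 10.37, and Ptges 8.18, 9.10 and 9.37. Gprc5a (-1.25) and the neurofilament gene Nefm (-1.13) were likewise lower at 4 ng/ml, and both were undetected in the controls. For other strong responders no such gap was called. Spp1 read 14.51, 14.53 and 14.51 at 4, 13 and 40 ng/ml, a difference of -0.01 from the higher doses with a 95% interval of -0.19 to 0.17. Quantile normalisation gives probes of equal rank the same value, and whether this bright signal was near a ceiling was not tested. For Irgm2 the difference was 0.11 with an interval of -0.60 to 0.81, which leaves room for a change of more than 1.5-fold. Of the 19 interferon and antigen presentation genes 1, Irf1, differed between 4 ng/ml and the higher doses (0.58 higher at 4 ng/ml). Over all named genes it was 173 of 3484 (4.97%), so this count does not set the list apart. Also, 6 of the 19 were undetected at 4 ng/ml, where a further fall could not be read.

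**Figure D5:**
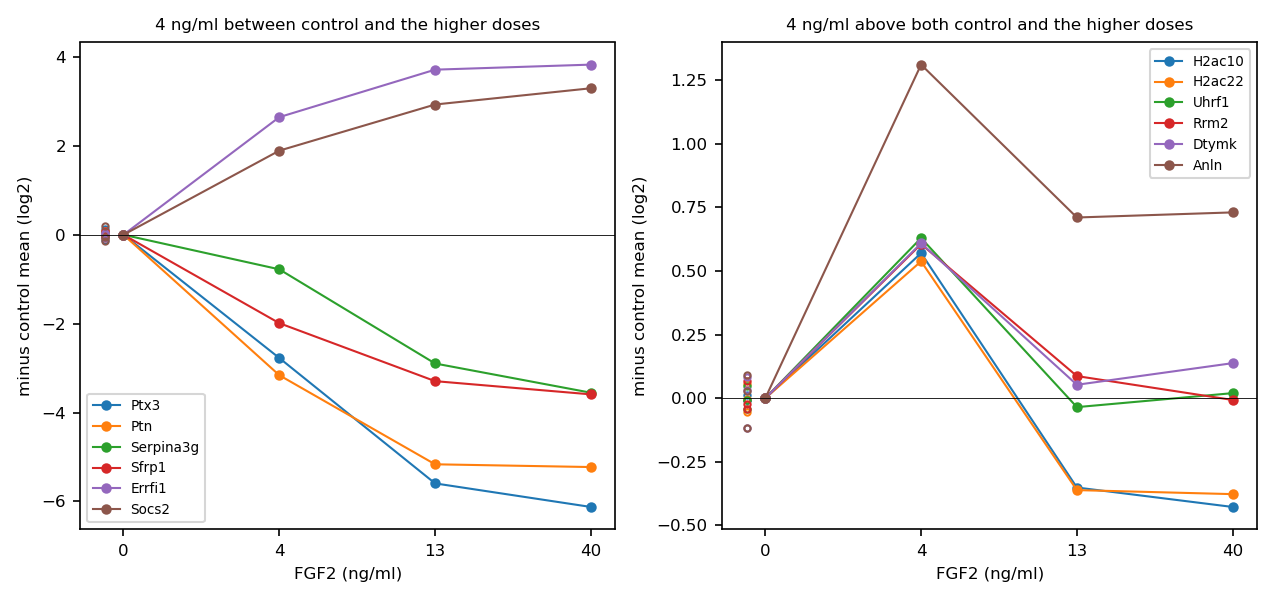
Log2 signal minus the control mean at 0, 4, 13 and 40 ng/ml FGF2 (1 array per dose, small open points for the 3 controls) for 6 genes whose 4 ng/ml value lies between control and the higher doses (left) and 6 whose 4 ng/ml value lies above both (right). Ptx3 falls stepwise, whereas Uhrf1 is at 0.63 at 4 ng/ml and back near the control level at 13 and 40 ng/ml.

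For 18 of the 109 genes 4 ng/ml did not lie between them, being above both control and the mean of the higher doses in 13 and below both in 5. The higher ones included Anln, which encodes the cytokinesis protein anillin, at 9.35, 8.75 and 8.77 at 4, 13 and 40 ng/ml with a control mean of 8.04 ± 0.11. Uhrf1, which maintains DNA methylation at replication, ran 10.08, 9.42 and 9.47 (control 9.45 ± 0.05), and Rrm2, a subunit of ribonucleotide reductase, ran 8.41, 7.89 and 7.80 (control 7.80 ± 0.06). Dtymk, thymidylate kinase, ran 10.13, 9.58 and 9.66 (control 9.53 ± 0.11). These 4 act in DNA replication or division and were chosen for mention after their values were seen. For Uhrf1, Rrm2 and Dtymk the higher doses read close to control. The G2 and M phase genes Stmn1, Birc5 and Plk1 were higher at 4 ng/ml than at the higher doses, by 1.01, 0.79 and 0.78, without passing the test against control. Dcakd, Slco3a1 and Pkig also belonged to the 13. The 5 lower ones were Gatad2b, Spcs2, Dexi, Sec16a and the mitochondrial ND4. Gatad2b and Spcs2 were undetected at 4 ng/ml, at least 1.32-fold and 1.34-fold below control, and Dexi changed by -1.01 and Sec16a by -0.62. A second Dexi probe gave -0.28 without passing the test. The call of ND4 against control (-0.25) was lost without control replicate 1 and without replicate 2.

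The remaining 6 of the 13 were histone H2A genes, which were also noticed after their values were seen. H2ac10 was at 11.43, 10.51 and 10.43 at 4, 13 and 40 ng/ml, with controls at 10.87, 10.85 and 10.85, and H2ac22 was at 11.55, 10.65 and 10.63, with controls at 11.07, 10.96 and 11.01. In both, 4 ng/ml lay above the controls and the higher doses below them. Of 8 H2A genes tested 6 were called higher than control, with a median of 0.39 and a highest change of 0.57. Of 11 H2B, 6 H3 and 7 H4 genes 0 were called against control, with medians of 0.07, 0.19 and -0.01. These counts do not set H2A apart in size of change. On dimmer probes, H3c11 changed by 0.59 (SE 0.25) and H3c2 by 0.41 (SE 0.18) without passing the test. Against the higher doses 6 H2A and 3 H4 genes were higher at 4 ng/ml. The genes of each histone family are near-identical, so these probes cannot be counted as separate genes. The calls of H2ac12, H2ac13, H2ac20 and H2ac24 against control were lost without control replicate 1 or when arrays were scaled to the same median. The 4 ng/ml array also had the fewest detected probes and, by the robust estimate, a wider spread of control probe signals than the controls, 14.2 units, against 12.2 to 13.3, and the part of the array in these results was not tested.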

How the data were processed

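Per the file headers, the deposited array files hold an average signal per probe, an intensity on a linear scale without background subtraction or normalisation, and a detection score between 0 and 1. Per the submitters' processing notes, BeadStudio 1.0 was used. A deposited value table, also an intensity, is a straight line of the signal (background subtracted, blank under a score of 0.99) and served only as an alternative. Background was corrected by normexp in limma 3.58.1 (R 4.3.3), with robust estimates of the negative controls from the detection scores, offset 16. The 6 arrays were quantile-normalised and taken to log2. Each dose was fitted as a group with lmFit and eBayes (trend, two-sided, Benjamini-Hochberg over 11763 probes, 0.05), leaving 2 residual degrees of freedom, all from the controls. The spread of the treated array is taken to equal theirs. For the comparison with higher doses, 13 and 40 ng/ml formed 1 group. The number of arrays limits the precision.

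Numbers in probe identifiers were read as NCBI gene numbers and named from RefSeq GRCm38.p6. With 1 leading zero 81.1% were mouse gene numbers and with 2 84.8%, against 37.8% after shifting them. Probe positions and batches are not given in the sources used here. Genes named are the 15 largest rises and falls outside the control range, the 8 each way farthest from the higher doses, and list members. Members and lists were chosen with earlier results of these data known. The fit was tested on simulated data. Alternatives changed the background, scaling, filter, variance prior and the controls used. Some list members are counted in their lists but not reported here by name.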

Additional observations from a re-analysis of the deposited data

How the results depend on the processing

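Of 188 named or listed genes followed through the refits, 136 kept their call in each refit that tested them, 52 lost it in at least one, and 0 changed direction. The refit on probes detected at 4 ng/ml and on all controls tested 159 of them. In the deposited value table, the change of 47 genes differed from the main value by more than the SD of the controls, and that of 114 did not. Where a gene had several tested probes, their mean change differed by more than that SD for 14 genes and not for 13. All 188 were followed because they were called on these same arrays. Scaling to the same median ended, among others, the calls of Col6a3, Pdlim7, Elovl6, Slco3a1 and Pkig. No paired analysis was possible because the treated group has 1 array and no replicate numbers are shared. The 2700 probe calls ranged from 1686 to 3136 when 1 control was left out, with 777 to 1572 higher and 909 to 1564 lower, and control replicate 1 gave the low end of each. Higher calls numbered 700 with scaling to the same median. The 699 changes over 2-fold became 310 with limma's default background, 384 with normexp without control probes, 329 without background correction and 426 for probes detected at 4 ng/ml and on all controls (695 to 726 with 1 control left out). Higher named genes ranged from 230 to 494 and lower ones from 273 to 453 with 1 control left out, and 203 were higher with scaling to the same median. With genes read only from identifiers with 1 leading zero or an accession, chosen after seeing the data, 237 of 2161 genes were higher and 247 lower. The 572 differences from the higher doses became 331 with scaling to the same median, 288 without a variance trend, and 340 to 911 with 1 control left out. The cause of these shifts was not tested. Some of the settings, but not all, also hold fewer genes or arrays. Signals near background limit the dim genes, for which only bounds are given.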
